A study of Mus musculus with 18 samples.

Results

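The 10 genes that encode the TGF-beta ligands (*Tgfb1*, *Tgfb2*, *Tgfb3*), their receptors (*Tgfbr1*, *Tgfbr2*, *Tgfbr3*) and the Smads of this arm of the pathway (*Smad2*, *Smad3*, *Smad4*, *Smad7*) were followed in aortae of mice with an edited *Tspan2* promoter. The genes were taken by symbol from 55453 symbols in each of 2 count tables. All 10 were expressed well enough to be tested in both experiments, and 0 of 10 changed with genotype in either one at an adjusted p under 0.05. *Tspan2* itself was far lower in edited aortae of both experiments.

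TGF-beta ligands are secreted in a latent form that is stored in the extracellular matrix and must be activated. An active ligand brings together the type II receptor TGFBR2 and the type I receptor TGFBR1, with the co-receptor TGFBR3 (betaglycan) helping to present it, and the receptors phosphorylate SMAD2 and SMAD3. These join SMAD4 and enter the nucleus, while SMAD7 is induced by the pathway and shuts the receptors off. In the aorta the pathway is known for its part in smooth muscle differentiation and matrix deposition, and mutations in several of these genes cause inherited aortic aneurysm.

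The question put to the aortae was how gene expression responds when a CArG box, the element bound by serum response factor (SRF), is disabled in the *Tspan2* promoter. In the HDR mice (C57BL/6, 12 weeks old), Cas9 cut the box under an sgRNA and repair from a supplied DNA strand put in 3 other bases side by side, and 5 wild-type and 5 homozygous *Tspan2* sg/sg aortae were sequenced, with 3 females and 2 males of each genotype in the labels. In the PE2 mice (labelled FVB/N/B6(Cg)-Tyrc-2J/J, 8 weeks old), prime editor 2, a Cas9 nickase joined to a reverse transcriptase, had made a C-to-G change in the same box, and 4 wild-type aortae (3 females, 1 male) were sequenced beside 4 homozygous *Tspan2* peg/peg aortae (all female). The edits are in the germ line and so in every cell, and each library came from 1 whole aorta cleaned of the tissue around it, so cell types were not separated. Age, labelled strain and sequencing depth differ between the experiments, and genotypes were therefore compared within each one. The paper's methods state the same strains for both kinds of editing.

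Sequences of the edit are shown because they define the 2 mutant genotypes. Both editors used the same 20-base guide spacer. In the primers that tell the HDR alleles apart, capitals mark the bases that were replaced, and in the pegRNA extension, which carries the template for the reverse transcriptase and its primer binding site, the capital marks the edited base. All are written 5′ to 3′.
guide spacer: uagaggacuguuaccuuaau
wild-type primer: cgcgcctactcccagttcttgCCT
sg/sg primer: cgcgcctactcccagttcttgGTC
pegRNA extension: guucuugGcuauuaagguaacagucc

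Promoter windows (250 bases before to 50 after a start site, RefSeq, GRCm38.p6) were at hand for 5 of the 10 genes, *Tgfb1*, *Tgfb2*, *Tgfbr1* (2 windows), *Tgfbr2* and *Smad3*. A CArG box on either strand was found in 0 of these 6 windows, beside 1.63% of 32851 windows of all genes. With a share this low, 0 of 6 says little. The paper places the box of human *TSPAN2* farther upstream than such a window reaches, and boxes at that distance were not scanned. CAGAC, the letters of the Smad binding element, occurred on either strand in 3 of the 6 windows, those of *Tgfb2*, *Tgfbr2* and 1 of the *Tgfbr1* starts, beside 49.6% of all windows. Only *Tgfb2* held more than 1 match, at 221 and 204 bases upstream of its start site, and these are shown in capitals (chr1:186706188-186706213, minus strand).
*Tgfb2* promoter: acaCAGACccttggtgatcaCAGACa

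HDR libraries held 17290992 to 24880385 counts each and PE2 libraries 38820265 to 44895615, and the smallest count among the 10 genes, that of *Tgfb1* in an sg/sg aorta, was 207 reads. *Tspan2* averaged 209 ± 60.1 CPM (counts scaled to the size of the library, SD, n = 5) in HDR wild-type and 24.9 ± 8.12 in sg/sg aortae, and 218 ± 45.0 (n = 4) in PE2 wild-type and 19.96 ± 6.74 in peg/peg aortae. It was the only gene called by the quasi-likelihood test of edgeR (Benjamini-Hochberg adjusted) in either experiment (log2 fold change −3.07, SE 0.27, adjusted p = 0.00226 in HDR, and −3.45, SE 0.29, adjusted p = 0.0292 in PE2). The call in PE2 was lost in 7 of the 8 fits that left out 1 library, while the fold stayed between −3.60 and −3.28. Smooth muscle markers were abundant in every library (8 genes together at 15982 to 58080 CPM), and none of the 8 was at 0.

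The library of peg/peg aorta 3 stood apart from the rest. Its log2 CPM correlated with those of the other peg/peg aortae at r = 0.867 to 0.875 over all tested genes, while those 3 correlated with each other at up to 0.977. Its summed level was 1117 CPM for 7 skeletal muscle markers (7.09 to 18.5 in the other PE2 libraries), 1036 CPM for 6 cardiac muscle markers (47.5 to 162) and 8010 CPM for 6 fibroblast markers (1736 to 4300), and it was the lowest of the 8 for endothelial (599 CPM), adipocyte (176 CPM) and brown fat markers (13.3 CPM). Its mitochondrial share of counts was 3.70% (7.47% to 12.4% in the other PE2 libraries) and its summed level of 6 macrophage markers 485 CPM (77.2 to 255). PE2 fold changes are therefore given with and without this library.

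*Tgfb3* was the most abundant of the 10 mRNAs per exon length in each of the 4 groups. Its level in RPKM (CPM per kilobase of exon) was 47.0 ± 12.2 in HDR wild-type, 47.5 ± 20.5 in sg/sg (n = 5 each), 55.3 ± 3.36 in PE2 wild-type and 62.9 ± 19.7 in peg/peg aortae (n = 4 each). In HDR wild type its range began at 33.6 RPKM and did not meet that of *Tgfbr2* (29.8 ± 3.32 RPKM) or *Tgfbr3* (28.4 ± 4.43). It did meet that of *Tgfbr1* (28.1 ± 5.43), which reached 36.4 RPKM, and the 3 receptors overlapped one another. *Smad4* came next at 21.97 ± 2.23 RPKM, and its range met that of *Tgfbr1*. *Tgfb2* (10.5 ± 2.16), *Smad7* (10.015 ± 2.63) and *Smad3* (7.80 ± 0.246) lay below *Smad4* without meeting its range. Of these, *Tgfb2* overlapped with *Smad7*, and *Smad7* with *Smad3*. *Smad2* (6.28 ± 0.358) and *Tgfb1* (3.24 ± 0.804) each lay below the gene before without overlap. In sg/sg aortae the ranges of *Tgfb3* and *Tgfbr1* (33.4 ± 11.9 RPKM), there the next gene, overlapped as well.

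In PE2 wild type the order began in the same way, with *Tgfb3* and then *Tgfbr2* (22.4 ± 2.96 RPKM), neither of which met the next gene in range. *Tgfbr3* (14.6 ± 2.17), *Smad4* (14.2 ± 0.441), *Tgfbr1* (12.9 ± 1.54) and *Tgfb2* (9.93 ± 2.69) followed. *Smad3* (7.66 ± 0.459), *Smad7* (7.33 ± 1.28) and *Tgfb1* (6.83 ± 0.585) came after them, and from *Tgfbr3* to *Tgfb1* each gene overlapped with the next. *Smad2* was the lowest at 4.14 ± 0.0482 RPKM, without overlap. The length used was that of all annotated exons of a gene. With the longest transcript instead, the level of *Tgfb1* in PE2 wild type was 13.4 RPKM and its place in the order moved from 9 to 6. Its exons span 5042 bases together and 2573 in the longest transcript. In HDR wild type *Tgfbr1* (31.9 RPKM) then moved from place 4 to 2 and *Tgfbr2* (30.1 RPKM) from 2 to 4. *Tgfb1* there came to 6.34 RPKM, close to *Smad2* at 6.82 RPKM. Overlap of ranges was read with the length of all exons only.

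**Figure D1:**
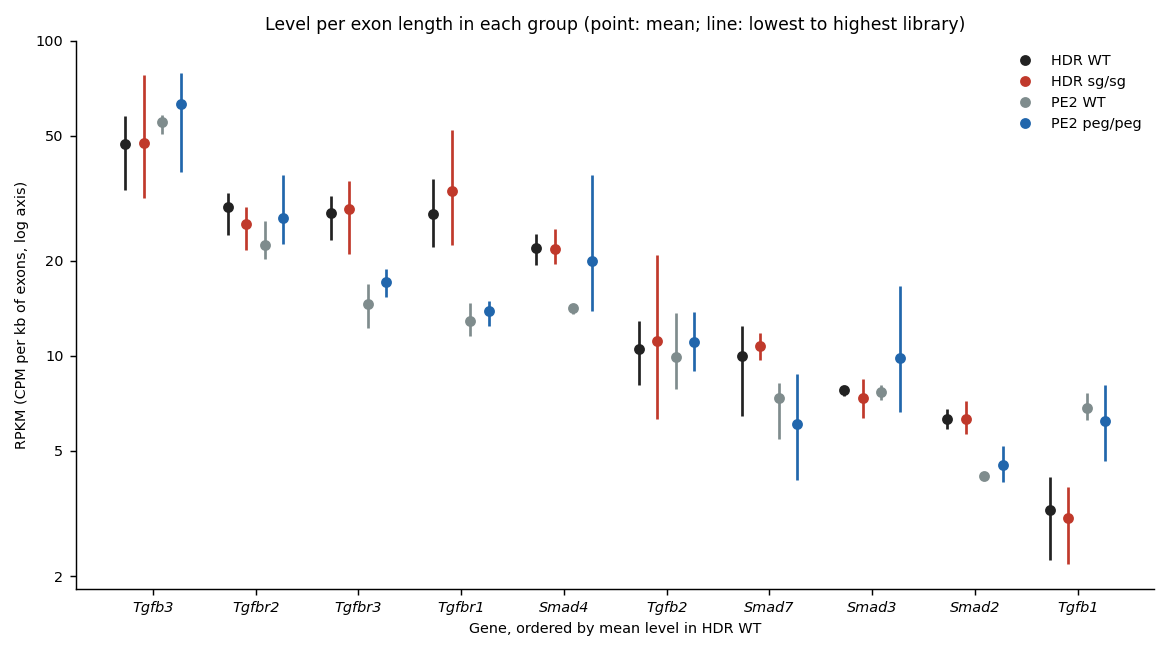
Level of each gene in RPKM (log axis), ordered along the horizontal axis by the HDR wild-type mean. Points are group means and lines run from the lowest to the highest library (n = 5 for the HDR and 4 for the PE2 groups). *Tgfb3* has the highest mean in all 4 groups, and *Tgfb1*, *Tgfbr1* and *Tgfbr3* differ more between the experiments than between genotypes.

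Among the ligands, *Tgfb3* made up 76.8% ± 4.65 of the summed per-length level in HDR wild-type, 76.5% ± 3.77 in sg/sg, 76.8% ± 2.68 in PE2 wild-type and 77.8% ± 3.40 in peg/peg aortae (SD, n = 5 and 4). *Tgfb2* made up 17.6%, 17.8%, 13.7% and 14.1% in the same order, and *Tgfb1* 5.64%, 5.76%, 9.53% and 8.08%. Within each experiment the shares of the genotypes differed by less than the larger of their SDs. With the longest transcript as the length, *Tgfb3* still held 69.2% to 71.4% in these groups.

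The wild types of the 2 experiments differed for several of these genes, in tables that were normalized separately. *Tgfb1* averaged 34.4 CPM in PE2 and 16.3 CPM in HDR wild type, 2.11 times as much. *Tgfbr1* (184 CPM in HDR, 84.6 in PE2), *Tgfbr3* (186 and 95.3), *Smad4* (81.5 and 52.7) and *Smad2* (55.2 and 36.4) lay the other way. The ranges of these 5 genes did not overlap, while those of the other 5 did. The share of all genes with such a separation was not computed, so the count is not a trait of these genes. Age, labelled strain, depth and any other difference between the experiments cannot be told apart here, and no test was made.

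**Figure D2:**
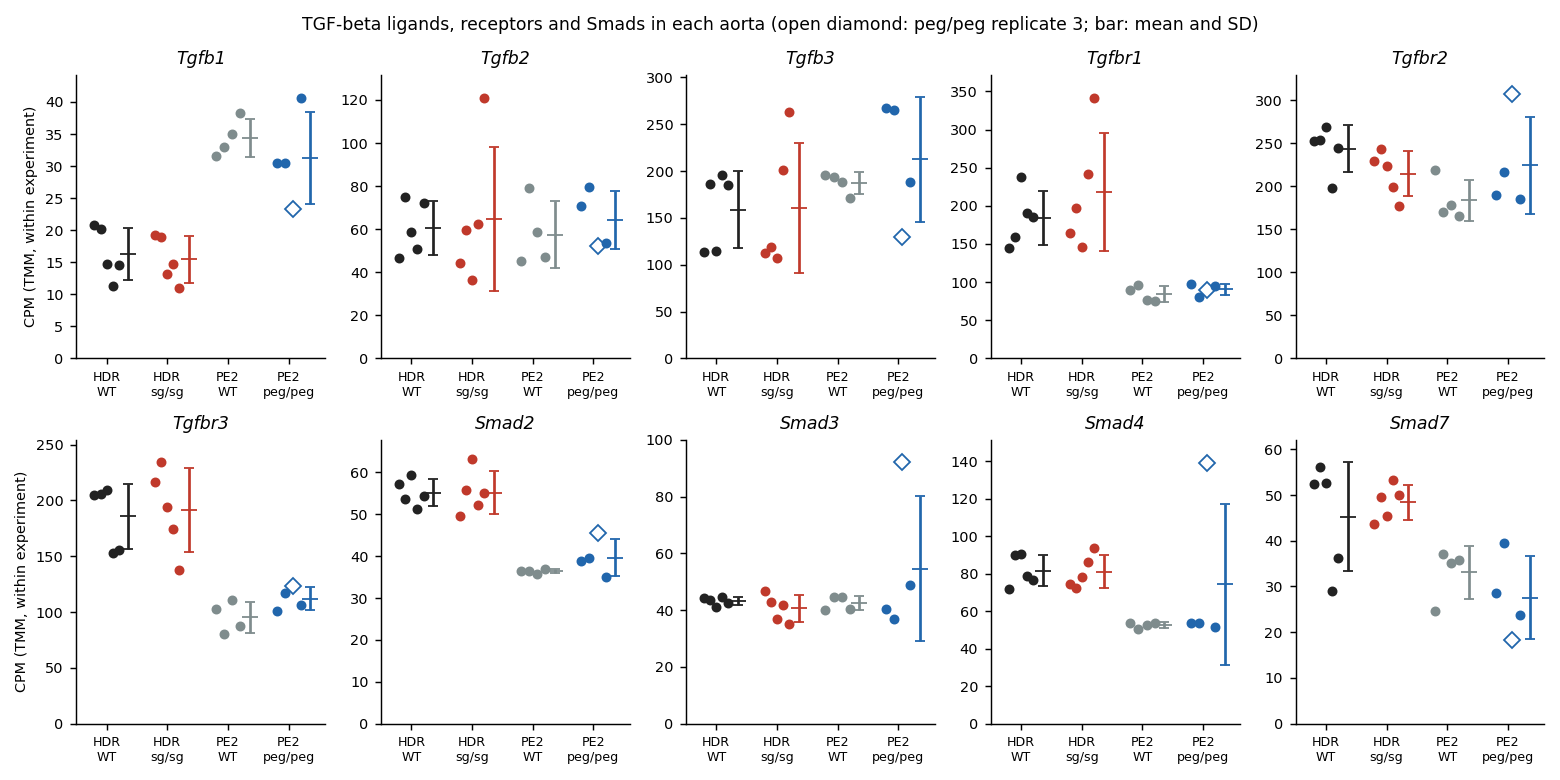
CPM of each of the 10 genes in every aorta (linear axes from 0), in the order HDR wild type, HDR sg/sg, PE2 wild type and PE2 peg/peg. Filled circles are libraries, the open diamond is peg/peg aorta 3, and the bars are group means with SD. The genotypes overlap for each gene in both experiments, and *Smad4* in peg/peg aorta 3 stands at 139 CPM beside 50.3 to 53.9 in the other PE2 libraries.

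The ligands did not differ by genotype beyond the spread between aortae. *Tgfb1*, the ligand best known from platelets and immune cells (chromosome 7, 25687002 to 25705077, plus strand, GRCm38), stood at 20.9, 20.1, 14.7, 11.3 and 14.5 CPM in HDR wild-type aortae 2 to 6, as the table numbers them, and at 19.3, 19.0, 13.1, 14.7 and 11.015 CPM in sg/sg aortae 2 to 6. It stood at 31.5, 32.9, 35.0 and 38.3 CPM in PE2 wild-type aortae 1 to 4 and at 30.4, 30.4, 23.3 and 40.7 CPM in peg/peg aortae 1 to 4. The genotypes overlapped in both experiments, with peg/peg aorta 3 the lowest of its experiment. On the log2 scale the change was −0.08 (SE 0.20) in HDR and −0.14 (SE 0.16) in PE2, with adjusted p = 1.00 and 0.877 by edgeR, and it was −0.03 (SE 0.13) in PE2 without aorta 3. In bulk aorta, a lower level can mean fewer cells that make a transcript or less of it in each cell, and the data cannot tell these apart.

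*Tgfb2*, a ligand with a strong role in heart and outflow tract development (chromosome 1, 186622792 to 186705989, minus strand), ranged over 46.7 to 74.8 CPM in HDR wild type. In sg/sg aortae it was 44.3, 59.5, 36.4, 62.4 and 121 CPM, so that aorta 6 alone lay above the wild types. Without that aorta the HDR log2 fold change of *Tgfb2* turned from 0.09 (SE 0.28) to −0.25, and it passed no threshold either way (adjusted p = 1.00 in both fits). In PE2 it was 45.3, 79.0, 58.8 and 46.9 CPM in wild-type and 71.0, 79.6, 52.0 and 53.6 CPM in peg/peg aortae, a log2 fold change of 0.16 (SE 0.22, adjusted p = 0.891), and 0.23 (SE 0.22) without aorta 3.

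*Tgfb3*, the most abundant ligand (chromosome 12, 86056745 to 86079041, minus strand), had high and low aortae within each HDR genotype. It was 114, 186, 114, 196 and 185 CPM in wild-type and 112, 119, 108, 201 and 264 CPM in sg/sg aortae 2 to 6. The highest value was again that of sg/sg aorta 6, and leaving it out moved the log2 fold change from 0.02 (SE 0.28) to −0.23. In PE2 the wild types were close together at 196, 194, 188 and 171 CPM, while peg/peg aortae stood at 267, 265, 129 and 188 CPM. Thus 2 peg/peg aortae lay above all wild types, 1 among them and aorta 3 below them. Its log2 fold change was 0.18 (SE 0.22, adjusted p = 0.883), and without aorta 3 it was 0.35 (SE 0.14, unadjusted p = 0.0339, adjusted p = 0.989). Peg/peg aortae 1 and 2 carried this, since aorta 4 was close to the wild-type mean of 187 CPM.

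Of the receptors, *Tgfbr2* differed most between the experiments in its response to genotype. The type II receptor that binds the ligand first (chromosome 9, 116084293 to 116175360, minus strand) stood at 252, 254, 269, 198 and 245 CPM in HDR wild-type and 229, 243, 224, 199 and 178 CPM in sg/sg aortae. All 5 sg/sg values lay below the wild-type mean of 244 CPM, yet the groups overlapped, since wild-type aorta 5 was lower than 4 of the sg/sg aortae. In PE2 it was 219, 171, 179 and 166 CPM in wild-type and 189.6, 216, 306.97 and 185 CPM in peg/peg aortae. All 4 peg/peg values lay above the wild-type mean of 184 CPM, with aorta 3 the highest and wild-type aorta 1 above 3 of the 4. Mutant over wild type, this was a log2 fold change of −0.18 (SE 0.12, unadjusted p = 0.158) in HDR and 0.29 (SE 0.18, unadjusted p = 0.152) in PE2, and 0.09 (SE 0.12) in PE2 without aorta 3.

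*Tgfbr1*, the type I receptor kinase (chromosome 4, 47353222 to 47414931, plus strand), stood at 145, 159, 238, 191 and 186 CPM in HDR wild-type and 164, 197, 147, 242 and 341 CPM in sg/sg aortae. As for the ligands *Tgfb2* and *Tgfb3*, sg/sg aorta 6 was the highest of the experiment. That library also had the highest summed level of smooth muscle markers in HDR, at 35789 CPM beside 15982 to 28050 CPM in the others. The part of this in the 3 genes was not tested. The log2 fold change of *Tgfbr1* was 0.25 (SE 0.22, adjusted p = 1.00), and 0.03 to 0.36 when 1 library was left out. In PE2 it was 75.4 to 96.2 CPM in wild-type and 81.0 to 97.2 CPM in peg/peg aortae, a log2 fold change of 0.10 (SE 0.11, adjusted p = 0.873), and 0.10 (SE 0.12) without aorta 3.

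*Tgfbr3*, the co-receptor betaglycan (chromosome 5, 107106570 to 107289629, minus strand), was 205, 206, 209.7, 153 and 156 CPM in HDR wild-type and 216, 235, 195, 175 and 138 CPM in sg/sg aortae. The 4 lowest values were those of wild-type and sg/sg aortae 5 and 6, the same 4 libraries in which the Y-linked gene *Ddx3y* was at 178 CPM or more, against 0 in the other 6. The part of sex in this was not tested, because the columns of the HDR table do not carry it, and 2 such libraries stood in each genotype. The log2 fold change was 0.05 (SE 0.16, adjusted p = 1.00). In PE2 it was 103, 80.0, 111 and 87.2 CPM in wild-type and 101, 117, 123 and 106 CPM in peg/peg aortae, and the log2 fold change of 0.23 (SE 0.13) had the smallest unadjusted p of the 10 genes in that experiment (unadjusted p = 0.100, adjusted p = 0.861). Without aorta 3 it was 0.17 (SE 0.13).

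*Smad2*, *Smad3* and *Smad4* differed little among HDR aortae of either genotype. *Smad2* and *Smad3*, the Smads that the receptors phosphorylate, ranged over 51.4 to 59.3 and 41.2 to 44.5 CPM in HDR wild-type aortae. In sg/sg aortae they ranged over 49.5 to 63.1 and 35.1 to 46.8 CPM, which overlapped the wild types, with log2 fold changes of −0.00 (SE 0.09) and −0.09 (SE 0.10). *Smad4*, the partner they share, was 72.0 to 90.7 CPM in wild-type and 72.4 to 93.7 CPM in sg/sg aortae, and its log2 fold change was −0.01 (SE 0.11). *Smad7*, the inhibitor, was 52.4, 56.1, 52.6, 29.1 and 36.2 CPM in wild-type and 43.8, 49.5, 45.4, 53.3 and 50.1 CPM in sg/sg aortae. The spread of *Smad7* was thus wider in wild type, and its log2 fold change was 0.10 (SE 0.17). All 4 had adjusted p = 1.00 by edgeR.

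In PE2 aortae the Smads gave the largest fold changes of the 10 genes, and these came from 1 library. *Smad4* was 53.9, 50.3, 52.8 and 53.6 CPM in wild-type and 53.5, 53.9, 139 and 51.6 CPM in peg/peg aortae. Aorta 3 alone was high, and the other 7 libraries lay between 50.3 and 53.9 CPM. *Smad3* was 40.1, 44.6, 44.8 and 40.4 CPM in wild-type and 40.5, 36.8, 92.1 and 49.0 CPM in peg/peg aortae, again highest in aorta 3. The log2 fold changes were 0.50 (SE 0.33) for *Smad4* and 0.36 (SE 0.28) for *Smad3* with all libraries, and −0.00 (SE 0.07) and −0.02 (SE 0.11) without aorta 3. *Smad2* was 35.8 to 36.9 CPM in the 4 wild types and 38.8, 39.5, 45.4 and 34.9 CPM in peg/peg aortae, a log2 fold change of 0.12 (SE 0.09), and 0.04 (SE 0.08) without aorta 3.

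*Smad7* lay on the other side in the same library. It was 24.6, 37.0, 35.2 and 35.8 CPM in PE2 wild-type and 28.6, 39.6, 18.2 and 23.8 CPM in peg/peg aortae, with aorta 3 the lowest of all. The log2 fold change was −0.27 (SE 0.24, adjusted p = 0.864), and −0.12 (SE 0.20) without aorta 3. In peg/peg aorta 3 the muscle and fibroblast markers given above were high as well, and *Tgfb1* and *Tgfb3* were at their lowest of the experiment. The part of other tissue in these values was not tested.

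**Figure D3:**
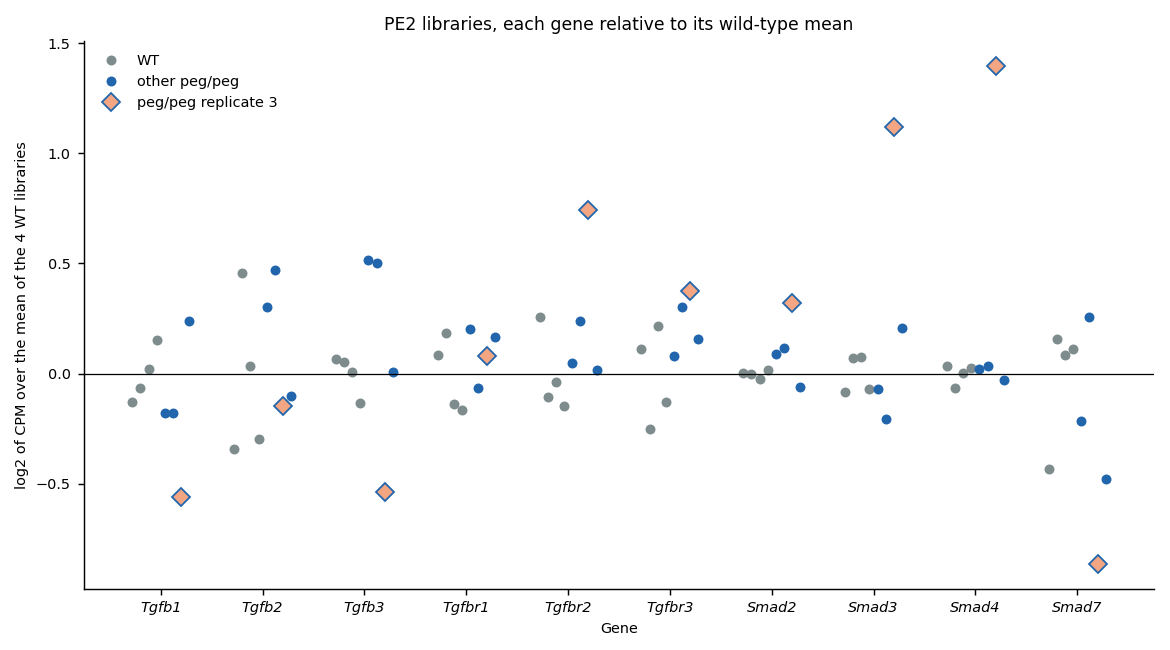
Each PE2 library relative to the wild-type mean of the same gene, as log2 of the CPM ratio. Grey circles are the 4 wild types, blue circles peg/peg aortae 1, 2 and 4, and the diamond is peg/peg aorta 3, which is the highest of 8 for *Tgfbr2*, *Tgfbr3*, *Smad2*, *Smad3* and *Smad4* and the lowest for *Tgfb1*, *Tgfb3* and *Smad7*.

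Counted together, 0 of 10 genes were called in HDR aortae, where 0.00609% of 16423 tested genes were, and 0 of 10 in PE2 aortae, where 0.00610% of 16401 were. At an unadjusted p under 0.05 the counts were also 0 of 10 in each experiment by edgeR, DESeq2 and limma-voom, beside 1.98% of all genes in HDR (0.353% higher and 1.63% lower in sg/sg) and 4.30% in PE2 (3.04% higher and 1.27% lower in peg/peg) by edgeR. The genotypes overlapped in CPM for all 10 genes in both experiments, while they did not for 0.317% of HDR and 2.54% of PE2 genes. Without peg/peg aorta 3, 0 of 10 were called (0.0120% of 16668 genes) 1, *Tgfb3*, had an unadjusted p under 0.05 (4.10% of genes, 2.19% higher and 1.91% lower in peg/peg), and the genotypes overlapped for all 10 (5.22% of genes did not). Log2 fold changes had a median of 0.01 in HDR (0.00 over all genes), with 5 genes higher and 5 lower in sg/sg (50.9% of all genes higher). In PE2 the median was 0.17 (0.01 over all genes), with 8 higher and 2 lower in peg/peg (52.2% of all genes higher). Without aorta 3 the PE2 median was 0.07 (−0.01 over all genes), with 6 higher and 4 lower (46.8% of all genes higher).

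The 95% intervals of edgeR say how large a change could have gone unseen. Over the 10 genes they ran from 0.666-fold to 1.66-fold in HDR, from 0.566-fold to 2.37-fold in PE2 and from 0.664-fold to 1.66-fold in PE2 without aorta 3. *Smad4* set the upper bound of 2.37-fold in PE2. In HDR the interval of *Smad2* ran from 0.871-fold to 1.15-fold and that of *Smad4* from 0.845-fold to 1.17-fold, and in PE2 without aorta 3 that of *Smad4* ran from 0.895-fold to 1.12-fold. For the ligands the HDR intervals ran from 0.693-fold to 1.64-fold (*Tgfb2*) and from 0.666-fold to 1.53-fold (*Tgfb3*). A change of that size between the group means of either could thus have gone unseen. A p above the threshold does not show that the genotypes were equal.

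**Figure D4:**
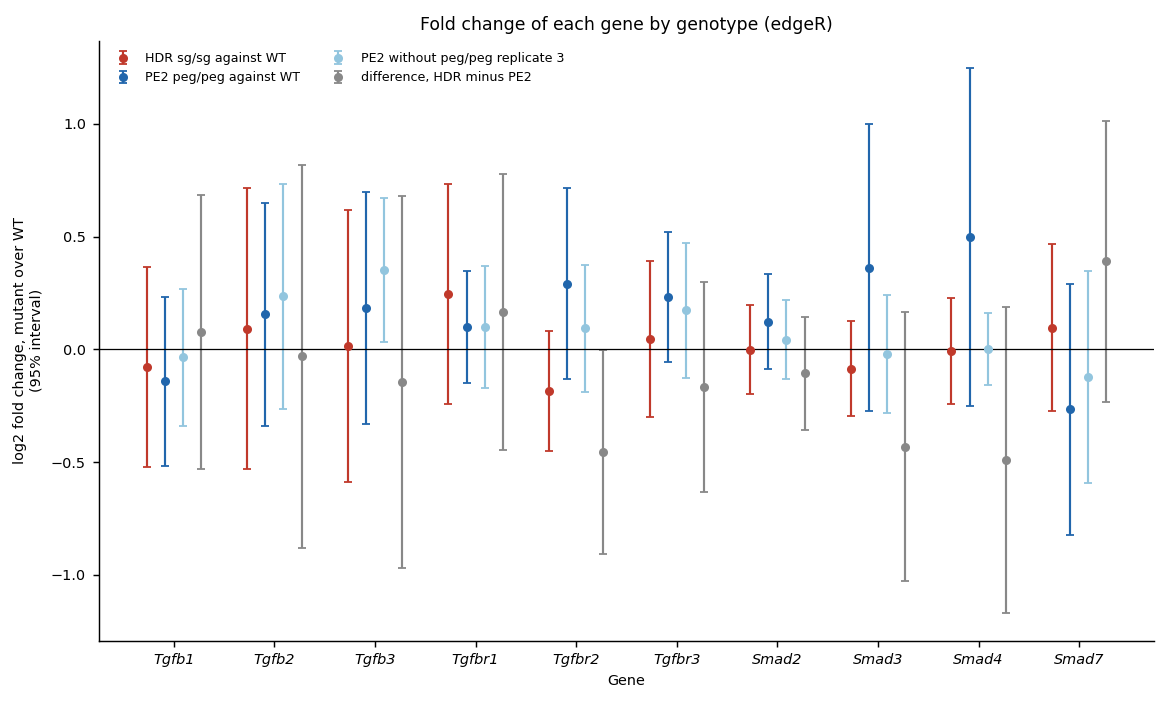
Log2 fold change of mutant over wild type for each gene (points) with its 95% interval (bars) in HDR, in PE2, in PE2 without peg/peg aorta 3, and for the difference of the 2 experiments. The intervals within an experiment include 0 with all libraries, and without peg/peg aorta 3 that of *Tgfb3* runs from 0.03 to 0.67.

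Whether the response to genotype differed between the experiments was tested directly, as the HDR change minus the PE2 change over all 18 libraries. Of 10 genes, 0 were called by edgeR (0% of 18094 genes), and 1, *Tgfbr2*, had an unadjusted p under 0.05 (5.13% of genes, 1.23% with the HDR change the higher and 3.91% with it the lower). Its difference was −0.46 on the log2 scale (SE 0.21, unadjusted p = 0.0484, adjusted p = 0.954). Here 5 of 5 sg/sg aortae lay below and 4 of 4 peg/peg aortae above their wild-type means, sg/sg aorta 3 and peg/peg aorta 4 only narrowly. The share of all genes with such a pattern was not computed. Without peg/peg aorta 3 the difference was −0.28 (SE 0.19, unadjusted p = 0.153). The largest difference in size was that of *Smad4* at −0.49 (SE 0.32, unadjusted p = 0.147), which was −0.01 (SE 0.15) without that library. The edits, ages and labelled strains cannot be told apart in this contrast.

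The rest of the pathway was read from 4 lists with 73 gene symbols. The lists were proteins that hold, store or activate the latent ligand, other receptors and co-receptors of the family, other Smads and regulators of Smads, and target genes. *Ltbp2* stands in the first and the last list, and the target symbol *Ctgf*, an older name of *Ccn2*, was not among the symbols counted. By edgeR 0 genes of the 4 lists were called in either experiment. In HDR, 1 of 18 tested latency genes, 0 of 12 receptors, 0 of 18 Smad regulators and 0 of 23 targets had an unadjusted p under 0.05 (1.98% of all genes). DESeq2 and limma-voom gave the same counts for each of these lists in HDR. The list medians were 0.01, 0.03, 0.03 and 0.05 on the log2 scale in that order (0.00 over all genes).

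The HDR gene was *Nrros*, which tethers latent TGF-beta 1 on macrophages. It was 8.64, 10.1, 7.45, 10.1 and 18.2 CPM in wild-type and 5.84, 5.07, 7.13, 9.96 and 3.46 CPM in sg/sg aortae, with overlap through sg/sg aorta 5. The log2 fold change was −0.79 (SE 0.30, unadjusted p = 0.0220, adjusted p = 1.00). Beside it, 6 of 6 macrophage markers were lower in sg/sg with an unadjusted p under 0.05 by edgeR (1.63% of all genes). These markers were at 132 to 234 CPM together against 176 to 440 CPM in wild type, and none was at 0. Their part in the *Nrros* value was not tested. In PE2 the log2 fold change of *Nrros* was 0.16 (SE 0.38), and it turned to −0.20 (SE 0.32) without peg/peg aorta 3, where *Nrros* was 19.7 CPM beside 8.68 to 10.1 CPM in the other peg/peg aortae. The abundant collagens among the targets had the smallest p of their list in HDR, *Col1a1* at −0.45 (SE 0.24, unadjusted p = 0.0838) and *Col3a1* at −0.36 (SE 0.22, unadjusted p = 0.125), and in PE2 they were at 0.17 (SE 0.29) and 0.13 (SE 0.34), or 0.25 (SE 0.23) and 0.25 (SE 0.21) without peg/peg aorta 3.

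In PE2, 0 of 19 tested latency genes, 1 of 12 receptors, 0 of 18 Smad regulators and 2 of 23 targets had an unadjusted p under 0.05 (4.30% of all genes). Without peg/peg aorta 3 the counts were 1, 2, 0 and 3 of the same totals (4.10% of all genes). DESeq2 with all libraries gave 1 latency gene at that threshold, and limma-voom gave 1 target. The list medians were 0.04, 0.06, 0.15 and 0.08 (0.01 over all genes), and without peg/peg aorta 3 they were 0.11, 0.10, −0.00 and 0.16 (−0.01 over all genes). *Acvr2b*, a type II receptor for activins, averaged 2.03 ± 0.488 CPM in wild-type and 3.32 ± 0.521 CPM in peg/peg aortae with no overlap (log2 fold change 0.71, SE 0.25, adjusted p = 0.861, and 0.72, SE 0.27, without aorta 3). *Snai2*, a transcription factor of mesenchymal cells, averaged 11.04 ± 1.83 CPM in wild-type and 7.24 ± 1.34 CPM in peg/peg aortae (−0.61, SE 0.19, adjusted p = 0.861, and −0.55, SE 0.19, without aorta 3). *Id1*, an inhibitor of differentiation factors and a BMP target, averaged 43.2 ± 3.72 and 55.5 ± 12.0 CPM (0.36, SE 0.16, unadjusted p = 0.0486, adjusted p = 0.861), and without aorta 3 the unadjusted p was 0.0782 (0.35, SE 0.17).

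The most abundant genes of the lists stayed within their spread in PE2. The targets *Acta2* and *Tagln*, which encode contractile proteins of smooth muscle, had log2 fold changes of −0.02 (SE 0.41) and 0.39 (SE 0.37), which were 0.07 (SE 0.30) and 0.09 (SE 0.24) without peg/peg aorta 3. The proteoglycan gene *Bgn*, whose product binds TGF-beta, was at −0.26 (SE 0.46), and at 0.03 (SE 0.19) without that library, in which it was 1518 CPM beside 4468 to 7213 CPM in the other 7. *Pmepa1*, a TGF-beta target that restrains Smad signalling, was at −0.55 (SE 0.38) with all libraries and −0.27 (SE 0.19) without peg/peg aorta 3, where it was 113 CPM against 309.8 to 550.2 CPM in the other 7. *Nedd4l*, an E3 ligase for Smads, was high in this library like *Smad4*, at 56.6 CPM, and its log2 fold change went from 0.55 (SE 0.37) to −0.01 (SE 0.13) without it.

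The target gene *Ccn2*, named after its values were seen, depended on the same library in the other direction. It encodes the connective tissue growth factor, which TGF-beta, SRF and YAP can each induce, and was 1537, 1028, 688 and 363 CPM in PE2 wild-type and 3242, 2984, 70.2 and 1401 CPM in peg/peg aortae. Aorta 3 was the lowest of the 8, aortae 1 and 2 lay above all wild types, and aorta 4 lay among them. Its log2 fold change was 1.09 (SE 0.92, adjusted p = 0.862), and without aorta 3 it was 1.48 (SE 0.48, unadjusted p = 0.0151, adjusted p = 0.989). *Bambi*, a pseudoreceptor that dampens TGF-beta signals and is induced by them, was at 0.34 (SE 0.16) with all libraries and 0.46 (SE 0.11, unadjusted p = 0.00290, adjusted p = 0.681) without aorta 3. In HDR *Ccn2* was at 0.15 (SE 0.71) and *Bambi* at 0.12 (SE 0.27). Immediate early genes stood beside them, with 8 of 8 higher in peg/peg (52.2% of all genes were). By edgeR 6 of them had an unadjusted p under 0.05 (3.04% of all genes, higher in peg/peg). The summed level of these immediate early genes was 334 to 608 CPM against 112 to 279 CPM in wild type. Their part in the level of *Ccn2* was not tested.

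**Figure D5:**
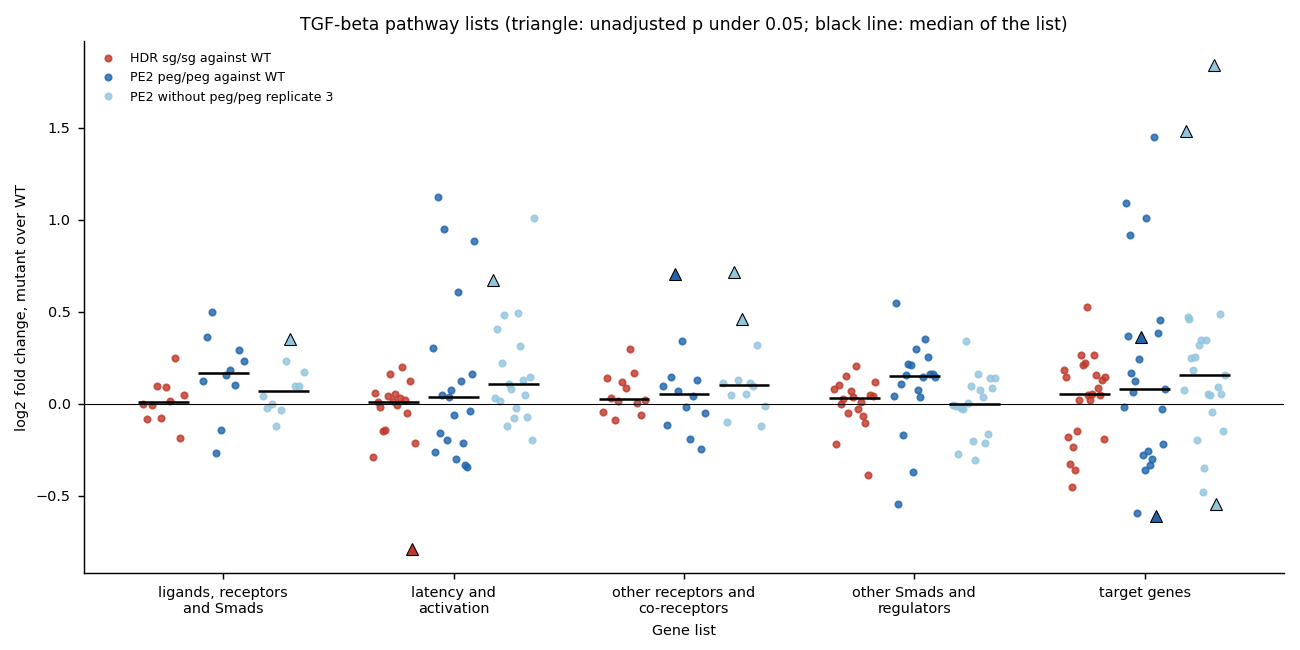
Log2 fold change of every tested gene of the 10-gene set and of the 4 pathway lists in HDR, in PE2 and in PE2 without peg/peg aorta 3. Circles are genes, triangles genes with an unadjusted p under 0.05, and black lines list medians. Without peg/peg aorta 3 the targets include *Ccn2* at 1.48, and *Snai2* lies at −0.55.

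Across aortae of one genotype some of the 10 genes varied together, and the pairs named here were picked from all pairs of the 10. *Tgfb2* and *Tgfb3* correlated at r = 0.796 over the 10 HDR libraries and 0.613 over the 8 PE2 libraries (0.603 without peg/peg aorta 3), as log2 CPM centred on the genotype means. *Tgfbr2* and *Tgfbr3* correlated at 0.893 and 0.629 (0.615 without that library). *Smad2* and *Smad3* gave −0.669 in HDR and 0.666 in PE2, and −0.933 in PE2 without aorta 3, so that this 1 library set the sign. *Tgfb1* and *Tgfb3* changed sign as well, at −0.547 in HDR, 0.324 in PE2 and −0.976 in PE2 without aorta 3. These libraries share composition and normalization, and the values are a description.

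Among 14761 genes tested in both experiments, the one most like each of the 10 was chosen by the lower of its 2 correlations. It was *Tnfrsf12a* for *Tgfb3* (r = 0.938 in HDR and 0.929 in PE2, Spearman's rho 0.830 and 0.952) and *A930004D18Rik* for *Tgfb2* (r = 0.921 and 0.952, rho 0.879 and 0.881). For *Tgfbr1* it was *Nxt1* (r = 0.889 in both), and for *Tgfbr3* it was *Tanc1* (r = 0.901 and 0.889). These 4 were at r = 0.766, 0.943, 0.942 and 0.870 over the 7 PE2 libraries without peg/peg aorta 3. For *Smad4* it was *1700020I14Rik* (r = 0.933 and 0.964), which went to 0.0908 without that library. The other 5 pairs, *Tgfb1* with *Bcorl1*, *Tgfbr2* with *Osgin1*, *Smad2* with *Memo1*, *Smad3* with *Nicn1* and *Smad7* with *Cdc42bpa*, had lower values between 0.811 and 0.901. Over the 7 PE2 libraries without peg/peg aorta 3 these were 0.758, 0.626, 0.439, 0.383 and 0.867 in that order. Each match was picked from 14761 genes on these same libraries, so its high values come in part from the choice. The 7 libraries are part of those used for the choice and give no separate check. All these values are a description.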

How the data were processed

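For each experiment the authors deposited raw counts per gene symbol, made with fastp, STAR 2.7.0f on GRCm38 with Gencode M22, and featureCounts of Subread 1.6.4. Beside these, the authors gave a signal scale of counts divided by DESeq2 1.22.1 size factors, used here only to check that each library had 1 factor. The strand setting is not given in the sources used here, so reads of genes that overlap *Tgfb2*, *Tgfb3*, *Tgfbr3* or *Smad4* on the other strand cannot be told apart from theirs. Kit and read length differ between labels and methods. The number of per-sample columns left unused was 0.

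Raw counts went to edgeR 4.0.16 in R 4.3.3 (TMM, filterByExpr, estimateDisp, glmQLFit, glmQLFTest), 1 experiment at a time on genotype, with Benjamini-Hochberg adjusted p under 0.05 as the threshold. DESeq2 1.42.0 and limma 3.58.1 were alternatives. CPM used TMM, and RPKM the summed exons of Gencode M21. The scripts were tested on simulated data. Replicates of a group differed by more than sampling noise (lowest chi-square per degree of freedom 17.2). HDR columns carry only the genotype and a running number, which is not that of the labels, so sex and pairing were not used there, and no sex was assigned from the values.

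The 10 genes, the 4 pathway lists and the 11 marker lists were chosen with earlier results of these data known. Beyond the 10 genes and *Tspan2*, the text names from each pathway list genes with the 2 smallest p in an experiment or the 2 highest levels, the most similar gene to each of the 10, and 1 said to be named after its values were seen. The values of 1 other gene of the lists are not reported here. The other alternatives were DESeq2 size factors, robust dispersions, genes kept from 1 count in total or only with 10 counts everywhere, a block of replicate numbers, a term for sex, females alone, each library left out in turn, CPM without TMM and shares without length. Added after the data were seen were legacy=FALSE in glmQLFit, DESeq2 and the lists without peg/peg aorta 3, and the length of the longest transcript.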

Additional observations from a re-analysis of the deposited data

Results flagged for a closer look

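Of 40 groups of libraries, 10 genes in 4 groups, 2 held a library farther from the rest than Dixon's ratio allows, and chance flags about 1 in 20. *Smad4* in peg/peg aorta 3 was 138.8 CPM, the highest of its group by far, beside 51.6 to 53.9 CPM in the other 3. *Smad7* in PE2 wild-type aorta 1 was 24.6 CPM, the lowest of its group, beside 35.2 to 37.0 CPM. Since *Smad7* in peg/peg aortae ranged over 18.2 to 39.6 CPM, this wild-type value lay inside the range of the other genotype.

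The fold change of *Tgfbr2* had opposite signs in the 2 experiments, and the genotypes overlapped in both. Every sg/sg aorta lay below and every peg/peg aorta above its wild-type mean, but some only narrowly. These were sg/sg aorta 3 (243.45 against 243.66 CPM) and peg/peg aorta 4 (185.5 against 183.6 CPM). The share of all genes with such a pattern was not computed. The difference of the log2 fold changes was −0.46 (HDR minus PE2, adjusted p = 0.954 by edgeR's interaction contrast), and it was −0.28 without peg/peg aorta 3 (unadjusted p = 0.153). Of 22 fits of this contrast, the reported one included, 8 gave an unadjusted p under 0.05.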

How the results depend on the processing

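Over 360 fold changes of the 10 genes under other settings, 0 were called and 4 had an unadjusted p under 0.05. These were *Tgfb3* without peg/peg aorta 3 by edgeR (unadjusted p = 0.0339) and DESeq2 (unadjusted p = 0.0228), *Tgfbr3* without PE2 wild-type aorta 3 (unadjusted p = 0.0404) and *Smad7* without peg/peg aorta 2 (unadjusted p = 0.0439). In all, 31 turned sign, most of them near 0. In HDR, *Smad2* was 0.0091 with DESeq2 size factors and 0.0061 by DESeq2, *Smad4* 0.0013 with those size factors, *Tgfb2* −0.0118 and *Tgfb3* −0.0423 by limma-voom. In PE2, *Smad3* was −0.0105 by DESeq2 without peg/peg aorta 3. With 1 library left out, log2 fold changes ran in HDR from −0.18 to 0.0282 for *Tgfb1*, −0.25 to 0.24 for *Tgfb2*, −0.23 to 0.13 for *Tgfb3*, −0.0394 to 0.15 for *Tgfbr3*, −0.0544 to 0.0334 for *Smad2*, −0.0598 to 0.0316 for *Smad4* and −0.0283 to 0.19 for *Smad7*, and in PE2 from −0.0205 to 0.51 for *Smad3* and −0.0003 to 0.62 for *Smad4*.

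Genes called in HDR numbered 1, and 4 by DESeq2. In PE2 they numbered 1, and 33 by DESeq2, 2 with legacy=FALSE, 0 with sex as a covariate, 0 in females alone, 0 to 2 with 1 library left out and 100 by DESeq2 without peg/peg aorta 3, and the cause was not tested. With the replicate number as a block, 0 genes were called in PE2 and no fold change of the 10 genes turned sign, but equal numbers did not pair the samples (correlation of deviations −0.290 to 0.0163 over 4 pairs). No paired analysis was possible in HDR because the columns carry no number of the labels. CPM without TMM moved 0 of 40 group means by more than their SD, shares without length 26 of 40, and the longest transcript 9 of 40. Depth bore most on *Tgfb1* in HDR, with 207 to 426 reads a library.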

Other observations

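The marker lists outside the pathway give the setting of these values. In HDR, unadjusted p was under 0.05 for 0 of 8 smooth muscle, 0 of 7 endothelial, 1 of 6 fibroblast (lower), 6 of 6 macrophage (lower), 0 of 5 T cell, 0 of 6 brown fat, 1 of 5 adipocyte (lower), 4 of 7 skeletal muscle (higher), 2 of 5 cardiac muscle (lower), 0 of 8 immediate early and 0 of 6 glucocorticoid-responsive genes tested, beside 1.98% of all genes. In PE2 the counts were 2 of 8 smooth muscle (higher), 1 of 7 endothelial (lower), 1 of 6 fibroblast (higher), 0 of 6 macrophage, 4 of 7 T cell (lower), 0 of 6 brown fat, 0 of 5 adipocyte, 3 of 6 skeletal muscle (higher), 2 of 5 cardiac muscle (higher), 6 of 8 immediate early (higher) and 2 of 6 glucocorticoid-responsive genes (higher), beside 4.30% of all genes. Without peg/peg aorta 3 the counts, in the same order and directions, were 1, 2, 0, 0, 3, 0, 0, 0, 3, 7 and 3, beside 4.10% of all genes. None of these genes passed the adjusted threshold of edgeR.

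*Ccn2* split the HDR aortae without regard to genotype. It was 305.2 to 571 CPM in wild-type and sg/sg aortae 2, 3 and 4 and 1375 to 3062 CPM in wild-type and sg/sg aortae 5 and 6, the libraries that were also lowest for *Tgfbr3*. They were also the libraries with *Ddx3y*, and the part of sex was not tested.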
